A study of Homo sapiens with 6 samples.

Results

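LGR5 and a set of genes that mark stem cells of the stomach and intestine were followed after CTNNB1 was silenced in YCC3 cells, an established line of human gastric cancer. The set had 10 members, namely LGR5, LGR4, LGR6, ASCL2, OLFM4, SMOC2, LRIG1, PROM1, SOX9 and BMI1. A gene was measured through the array row whose only gene symbol is that gene, with rows chosen by the mean signal over the 6 arrays (the brightest) where there are several. This gave 9 members of 18417 genes in all, each with 1 row, so brightness decided no choice. The row that holds BMI1 also carries the symbol COMMD3-BMI1, and no value is given for it. LGR5 was chosen with its change, the lowest of any gene on these arrays, already known, so its values are a description, with no test.

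The arrays were 3 from cells transfected with CTNNB1 siRNA, set against 3 from cells transfected with non-targeting control siRNA. All 6 were YCC3 cultures from which 500 ng of RNA was labelled, taken 48 hours after transfection. The labels call them biological replicates without saying that they were separate cultures, so p-values cover the spread of these 6 samples alone, which may be technical. The siRNA sequences, and whether 1 siRNA or a pool was used, are not stated in the labels.

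LGR5, LGR4 and LGR6 are receptors for R-spondins, secreted proteins that strengthen Wnt signalling. With R-spondin bound, they take the ubiquitin ligases RNF43 and ZNRF3 from the cell surface, which otherwise remove the Frizzled receptors for Wnt. Wnt ligands then stabilise beta-catenin, the product of CTNNB1, which acts with TCF/LEF factors to switch on target genes. In the intestinal crypt and at the base of gastric glands LGR5 marks dividing stem cells and is itself a Wnt target.

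The targeted transcript was lower with CTNNB1 siRNA. On the log2 scale of the deposited RMA signals, in which 1 unit is a 2-fold step, CTNNB1 measured 10.94, 11.06 and 11.20 with CTNNB1 siRNA and 11.80, 11.81 and 11.90 with control siRNA. Its log2 change was -0.77 ± 0.10 (SE), or 41.4% less signal (limma, adjusted p = 0.00267). Over all 18417 genes 4.72% passed the threshold of 0.05 on the adjusted p, 2.65% lower and 2.07% higher with CTNNB1 siRNA. The share of these calls that were rises was 43.9% as deposited and 56.3% under cyclic loess scaling. With 1 array left out this share ranged up to 67.0% when control replicate 1 was dropped and 66.7% when control replicate 3 was, and down to 41.5% when replicate 3 of the CTNNB1 siRNA was. It was 70.8% with all rows of the table in the fit and 34.7% without the dimmest 50% of genes. Genes that cells switch on in answer to interferon or double-stranded RNA moved with the groups. All 38 measured interferon-stimulated genes rose, led by RSAD2 at 4.28 ± 0.13 and IFIT1 at 4.27 ± 0.11 (log2 change ± SE), and the mean log2 level of the list was 9.25 to 9.43 with CTNNB1 siRNA and 7.07 to 7.10 with control siRNA. Its part in the results on stem cell genes was not tested.

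The epithelial markers EPCAM and KRT8 gave bright signals. EPCAM measured 11.80 ± 0.16 with CTNNB1 siRNA and 11.78 ± 0.11 with control siRNA (SD, n = 3 each), and KRT8 measured 13.58 ± 0.11 and 13.57 ± 0.08 in that order. The mean log2 level of 12 epithelial markers was 10.41 to 10.46 with CTNNB1 siRNA and 10.22 to 10.29 with control siRNA, without overlap. Of these 12, 10 were higher with CTNNB1 siRNA, with a median log2 change of 0.16, and 2 passed the threshold, or 16.7% beside 4.72% of all genes. The part of this difference in the results on stem cell genes was not tested. The leukocyte antigen PTPRC lay at 2.67 ± 0.07 and 2.58 ± 0.19 and the endothelial marker PECAM1 at 3.97 ± 0.11 and 4.04 ± 0.06 (CTNNB1 siRNA, then control siRNA). These lists were not uniformly dim. In the same order LYZ, named after its values were seen, lay at 12.07 ± 0.07 and 12.36 ± 0.04. CD68 lay at 9.93 ± 0.16 and 8.98 ± 0.27, and COL1A1 at 6.77 ± 0.03 and 6.66 ± 0.05. The mean log2 level of 18 leukocyte markers was 5.36 to 5.55 with CTNNB1 siRNA and 5.24 to 5.42 with control siRNA. That of 18 endothelial and fibroblast markers was 4.43 to 4.54 with CTNNB1 siRNA and 4.36 to 4.44 with control siRNA. Of these leukocyte, endothelial and fibroblast markers only CD68, a lysosomal protein gene, passed the threshold, higher by 0.95 ± 0.14 log2 units (SE; limma, adjusted p = 0.00547). Signals on arrays have no true zero, and none of the markers was shown to be above or below background.

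Of the 9 measured members, LRIG1 was lower with CTNNB1 siRNA past the threshold, none was higher, and 7 did not pass. LGR5 also lay past it, but was chosen for its fall, so this is no test of LGR5. Counted with LGR5 the share is 22.2% of the members beside 4.72% of all genes. Without LGR5 it is 1 of 8 members, or 12.5%. The members were chosen with these results known, so nothing is read from that share. The median log2 change of the 8 members other than LGR5 was -0.02, beside 0.01 over all genes.

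**Figure D1:**
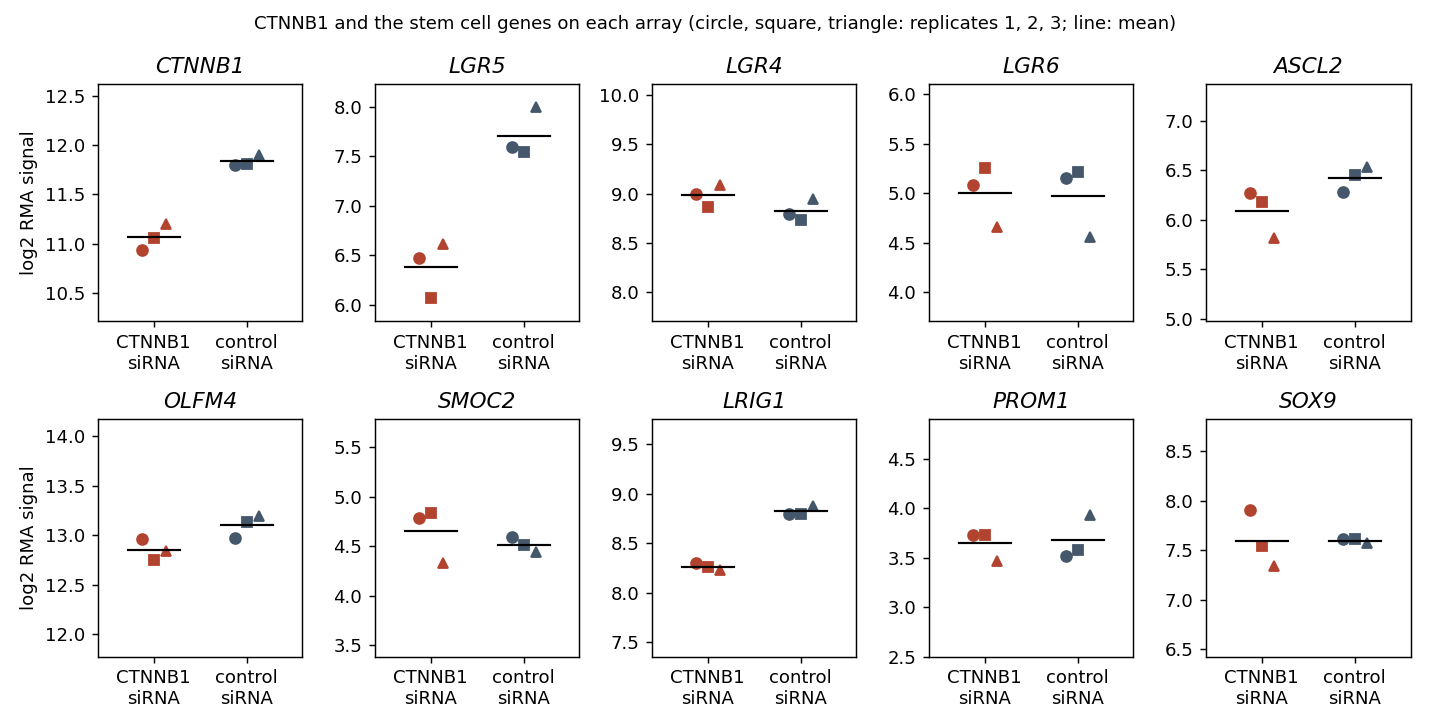
Log2 RMA signal of CTNNB1 and the 9 measured stem cell genes on each array, with CTNNB1 siRNA in red on the left and control siRNA in grey on the right of each panel. Symbols are replicates, lines are group means, and every panel spans the same height in log2 units. The groups lie 0.931 log2 units apart for LGR5 and 0.502 for LRIG1, and 0.014 or less for ASCL2 and OLFM4.

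Among the R-spondin receptors, LGR5 was lower on every CTNNB1 siRNA array, whereas the groups overlapped for LGR4 and LGR6. LGR5 measured 6.47, 6.07 and 6.61 with CTNNB1 siRNA and 7.59, 7.54 and 8.00 with control siRNA. The groups were separated by 0.931 log2 units between their nearest arrays. The log2 change was -1.33 ± 0.16 (SE), or 60.2% less signal. Within the silenced arrays the order of LGR5 did not follow that of CTNNB1: CTNNB1 was lowest in replicate 1 and LGR5 in replicate 2. In these bulk samples, fewer LGR5-positive cells and less LGR5 RNA per cell cannot be told apart.

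LGR4, the broadly expressed receptor of the family, measured 8.99, 8.86 and 9.09 with CTNNB1 siRNA and 8.79, 8.73 and 8.94 with control siRNA. The groups overlapped, and the log2 change was 0.16 ± 0.11 (SE), with a 95% confidence interval of -0.08 to 0.39 (limma, adjusted p = 0.460). LGR6, known as a marker of stem cells in mouse skin, measured 5.08, 5.25 and 4.66 with CTNNB1 siRNA and 5.15, 5.21 and 4.56 with control siRNA. Replicate 3 was the lowest of both groups, and the change of 0.02 had an interval of -0.40 to 0.45 (adjusted p = 0.967). The control mean of LGR6, 4.97, lay below the array medians over genes of 6.53 to 6.57, and its signal was not shown to be above background. Whether these changes differ from that of LGR5 was not tested, since LGR5 was chosen for its own.

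ASCL2 is a transcription factor that maintains the LGR5-positive state in the mouse intestine. It measured 6.27, 6.18 and 5.82 with CTNNB1 siRNA and 6.28, 6.45 and 6.53 with control siRNA. The groups did not overlap, though only 0.014 log2 units separated the nearest arrays. The log2 change of -0.33 ± 0.13 (SE; interval -0.62 to -0.04) did not pass over all genes (limma, adjusted p = 0.188). The control mean of 6.42 was also under the array medians over genes.

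SOX9, a Wnt-responsive transcription factor of crypt progenitors and Paneth cells, had the same mean in both groups with a wider spread in one. It measured 7.91, 7.54 and 7.34 with CTNNB1 siRNA and 7.61, 7.61 and 7.57 with control siRNA. The group means were both 7.60, while the arrays spanned 0.57 log2 units with CTNNB1 siRNA and 0.04 with control siRNA. The interval of its change ran from -0.31 to 0.30 (limma, adjusted p = 0.994).

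OLFM4 encodes olfactomedin 4, a secreted glycoprotein abundant in human intestinal stem cells and often raised in gastric cancer. Its signal was near the top of the array scale, at 12.96, 12.75 and 12.84 with CTNNB1 siRNA and 12.97, 13.13 and 13.20 with control siRNA. The groups did not overlap, by a margin of 0.007 log2 units. The log2 change was -0.25 ± 0.11 (SE; interval -0.48 to -0.01), which did not pass (limma, adjusted p = 0.217). SMOC2, a matrix protein gene enriched in mouse intestinal stem cells, was dim. It measured 4.79, 4.84 and 4.33 with CTNNB1 siRNA and 4.59, 4.51 and 4.44 with control siRNA. The CTNNB1 siRNA arrays lay on both sides of all control arrays (log2 change 0.14 ± 0.14, SE; interval -0.16 to 0.45; limma, adjusted p = 0.619).

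LRIG1 was the other member lower past the threshold, and the one with the smallest spread among the silenced arrays. It encodes a membrane protein that restrains ERBB receptor signalling and marks stem cells in the mouse intestine, in part less active ones. It measured 8.30, 8.26 and 8.23 with CTNNB1 siRNA and 8.80, 8.80 and 8.88 with control siRNA. The arrays of either group lay within 0.08 log2 units of each other, and 0.502 units separated the groups. LRIG1 fell by 0.56 ± 0.09 log2 units (SE), or 32.4% in signal, with an interval of -0.77 to -0.36 (limma, adjusted p = 0.00763). Its relatives LRIG2 and LRIG3, named after their values were seen, changed by -0.07 ± 0.12 (interval -0.33 to 0.19) and 0.12 ± 0.10 (interval -0.11 to 0.35), and neither passed.

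PROM1, which encodes the surface protein CD133 used to isolate stem-like tumour cells, was dim as well. It measured 3.73, 3.73 and 3.47 with CTNNB1 siRNA and 3.52, 3.58 and 3.93 with control siRNA. The groups overlapped, and the log2 change was -0.03 ± 0.13 (SE; interval -0.33 to 0.26; limma, adjusted p = 0.914). Whether YCC3 expresses PROM1, SMOC2 or LGR6 cannot be read from these signals, which lay well below the array medians over genes.

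In all, 4 of 9 members had groups that did not overlap, all of them lower with CTNNB1 siRNA, which is 44.4% beside 26.0% of all genes, and 3 of the 8 others without LGR5, or 37.5%. Among all genes 15.2% were lower without overlap and 10.8% higher. The margins were only 0.014 log2 units for ASCL2 and 0.007 for OLFM4. Since the members were chosen with these results known, nothing is read from these shares.

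**Figure D2:**
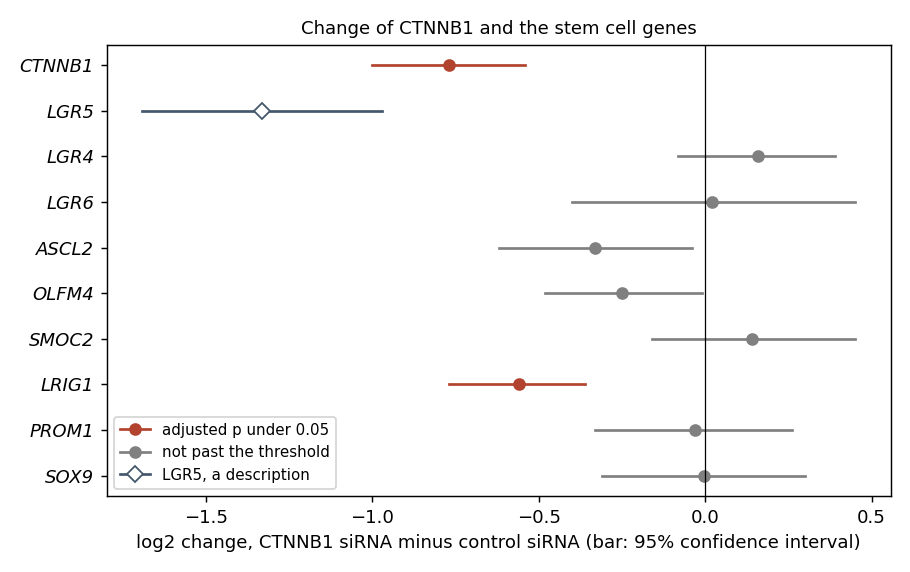
Log2 change, CTNNB1 siRNA minus control siRNA, with 95% confidence intervals, for CTNNB1 and the 9 measured stem cell genes. LRIG1 at -0.56 passed the threshold, LGR5 at -1.33 is drawn as a description, and the intervals of LGR4, LGR6, SMOC2, PROM1 and SOX9 span 0.

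The RefSeq promoter table (GRCh38.p14) held windows of 250 bases before to 50 after a gene's start for 7 of the 10 members, namely LGR4, LGR6, OLFM4, SMOC2, LRIG1, PROM1 and BMI1. LGR5, ASCL2 and SOX9 were not among them. The core motif of TCF/LEF factors, the DNA-binding partners of beta-catenin, was searched on both strands as CTTTGNN, where each N is A or T. It was found in 2 of 16 member windows, 1 of OLFM4 and 1 of PROM1, and in 13.8% of all 35116 windows. The windows of LRIG1 and OLFM4 are shown because LRIG1 is the tested member that fell and OLFM4 the member without overlap that had a match. Capitals mark the match, which in OLFM4 reads TACAAAG, the motif on the reverse strand, and begins 227 bases before the start. The LRIG1 window is the most upstream of its 4, at chr3:66501072-66501371 on the minus strand, and that of OLFM4 lies at chr13:53028563-53028862 on the plus strand.
LRIG1: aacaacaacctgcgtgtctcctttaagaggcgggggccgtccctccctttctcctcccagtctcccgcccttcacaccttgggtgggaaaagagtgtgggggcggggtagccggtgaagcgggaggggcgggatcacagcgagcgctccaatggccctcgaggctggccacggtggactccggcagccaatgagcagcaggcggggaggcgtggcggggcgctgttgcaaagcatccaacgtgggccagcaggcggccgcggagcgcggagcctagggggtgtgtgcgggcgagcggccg
OLFM4: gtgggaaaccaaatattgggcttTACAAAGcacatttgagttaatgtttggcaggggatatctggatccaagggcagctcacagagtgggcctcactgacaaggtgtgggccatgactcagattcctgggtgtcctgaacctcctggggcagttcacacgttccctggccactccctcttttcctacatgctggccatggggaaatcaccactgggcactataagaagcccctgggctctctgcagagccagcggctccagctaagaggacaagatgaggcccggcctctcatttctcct
No match means only that these letters are not in the window, and enhancers farther away were not searched.

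Genes of the machinery around the LGR receptors were called at about the share of all genes. Of 22 measured genes of the R-spondin receptor axis, 1 rose, none fell and 21 did not pass, or 4.55% called beside 4.72% of all genes. The count of falls depended on the processing. It was 2 without the dimmest 50% of genes. It was 1 without the dimmest 25%, with a replicate block, a trended and robust variance or array weights, and without CTNNB1 siRNA replicate 3. None fell in the other alternatives. The median log2 change was 0.04, beside 0.01 over all genes. The ligand genes RSPO1 to RSPO4, named for their role after their values were seen, changed by between -0.07 and 0.14, and none passed. The ligases that LGR receptors remove were lower without passing. ZNRF3 measured 7.27, 6.96 and 6.82 with CTNNB1 siRNA and 7.34, 7.39 and 7.50 with control siRNA, which differ by -0.39 ± 0.12 (SE) on the log2 scale (limma, adjusted p = 0.104). RNF43 measured 7.74, 7.54 and 7.71 with CTNNB1 siRNA and 7.86, 7.89 and 8.01 with control siRNA, a log2 change of -0.26 ± 0.10 (SE; adjusted p = 0.176). In both genes the groups did not overlap.

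Among the receptors that these ligases act on, FZD5 was the called gene. FZD5 measured 9.48, 9.18 and 9.38 with CTNNB1 siRNA and 8.86, 8.82 and 8.91 with control siRNA, a 1.40-fold rise (limma, adjusted p = 0.0309). It still passed without CTNNB1 siRNA replicate 2, but not when any of the other arrays was left out (adjusted p = 0.0660 to 0.121). The co-receptor gene LRP6 measured 7.38, 7.15 and 7.51 with CTNNB1 siRNA and 7.75, 7.74 and 7.92 with control siRNA, a change of -0.46 ± 0.12 (SE) that did not pass (adjusted p = 0.0520).

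Other genes of columnar stem cells, the dividing LGR5-positive cells at the crypt base, were lower wherever they were called. Of 23 measured genes 6 fell, none rose and 17 did not pass, or 26.1% called beside 4.72% of all genes. The list was written with several of its falls already known from these arrays, so its count is not independent evidence of a direction. Its median log2 change was -0.09, with 15 genes lower and 8 higher. CCND1 and SP5, named after their values were seen, changed by -0.01 ± 0.10 and -0.07 ± 0.14 (SE) and did not pass. SLC12A2, a sodium-potassium-chloride cotransporter enriched in mouse intestinal stem cells, showed the greatest fall of the list. It measured 8.90, 8.59 and 8.91 with CTNNB1 siRNA and 9.97, 9.65 and 9.87 with control siRNA, and its log2 change of -1.03 ± 0.12 (SE) passed (limma, adjusted p = 0.00168). CDK6, a kinase that drives entry into the cell cycle, measured 8.42, 8.12 and 8.44 with CTNNB1 siRNA and 9.35, 8.96 and 9.12 with control siRNA, a log2 change of -0.82 ± 0.13 (SE; adjusted p = 0.00791). In both genes replicate 2 was the lowest array of both groups.

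MYC, a growth-promoting transcription factor and Wnt target, fell by 0.61 ± 0.09 log2 units (SE; limma, adjusted p = 0.00644). CD44, a hyaluronan receptor also listed among gastric stem and progenitor genes, fell by 0.57 ± 0.09 (adjusted p = 0.00781). CDCA7, a MYC-responsive gene of dividing cells, measured 7.97, 7.62 and 8.03 with CTNNB1 siRNA and 8.38, 8.47 and 8.55 with control siRNA, a fall of 33.7% in signal (adjusted p = 0.0242). AXIN2, the feedback inhibitor of the Wnt pathway, fell by 0.58 ± 0.12 log2 units (adjusted p = 0.0258). SLC12A2, MYC and CDK6 passed with any 1 array left out. Without control replicate 1 they were the 3 genes of the list that still passed, with CD44 at an adjusted p of 0.0507. AXIN2 passed only when CTNNB1 siRNA replicate 1 was the array left out, and CDCA7 only when it was CTNNB1 siRNA replicate 3 (otherwise adjusted p = 0.0575 to 0.0933 and 0.0611 to 0.0943). PHLDA1 at -0.32 ± 0.10 was the nearest gene of the list outside the threshold (adjusted p = 0.103).

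**Figure D3:**
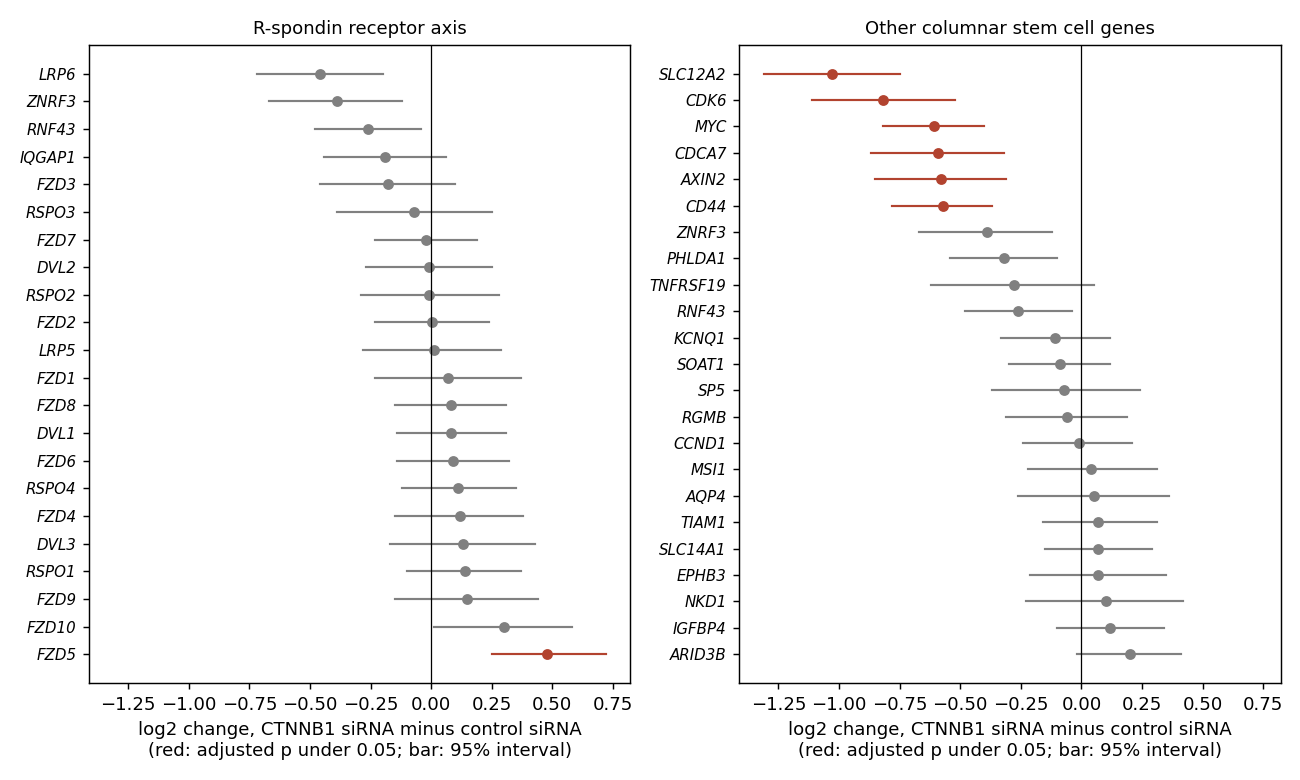
Log2 change, CTNNB1 siRNA minus control siRNA, with 95% confidence intervals, for 22 genes of the R-spondin receptor axis (left) and 23 other columnar stem cell genes (right). ZNRF3 and RNF43 are in both lists. Red marks the 1 rise on the left and the 6 falls on the right that passed the threshold.

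Of 12 genes linked to reserve or regenerating stem cells 2 rose, none fell and 10 did not pass, a share of 16.7% beside 4.72% of all genes. This list too was chosen with earlier results known, so its count is not independent evidence of a direction. HOPX, TERT and CLU, named after their values were seen, changed by -0.06 ± 0.09, -0.06 ± 0.10 and 0.07 ± 0.09 log2 units (SE) and did not pass. The median log2 change was 0.07. KLF4, a factor of epithelial differentiation that can help reprogramme cells, measured 8.64, 8.45 and 8.62 with CTNNB1 siRNA and 7.52, 7.70 and 7.70 with control siRNA, a 1.90-fold rise (limma, adjusted p = 0.000865). LY6E, a surface protein gene that interferon also induces, measured 10.76, 10.62 and 10.33 with CTNNB1 siRNA and 9.78, 9.89 and 9.91 with control siRNA, a 1.64-fold rise (adjusted p = 0.0102). LY6E no longer passed without CTNNB1 siRNA replicate 1 (adjusted p = 0.0544) or control replicate 1 (0.0555). Neither gene is specific to stem cells, and the interferon-stimulated genes rose in the same arrays. Any link between those genes and the rises of KLF4 and LY6E was not tested.

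Of 16 gastric stem and progenitor genes 1 fell, CD44, none rose and 15 did not pass. This is 6.25% called beside 4.72% of all genes, and the median log2 change was -0.02. CBLIF, which encodes gastric intrinsic factor, changed by -0.40 ± 0.10 log2 units (SE; limma, adjusted p = 0.0512) at a dim signal, and PGC, the pepsinogen C gene of chief cells, by -0.25 ± 0.10 (adjusted p = 0.202). Both are also among the differentiation genes below. The falls in this list numbered 2 with a replicate block, array weights, median centring, cyclic loess or a second quantile normalization. In those alternatives 1 of the differentiation genes fell. Of 31 genes of gastric and intestinal differentiation 2 rose, none fell and 29 did not pass. This is 6.45% called, also beside 4.72%, with a median log2 change of 0.15. Of the 31 genes 22 were higher and 9 lower. In limma 14 had an unadjusted p under 0.05, beside 3746 of all 18417 genes. The mean log2 level of the list was 7.11 to 7.17 with CTNNB1 siRNA and 6.95 to 7.01 with control siRNA, without overlap. The count of rises was 5 without the dimmest 50% of genes and 0 without moderation. The list was chosen with earlier results known, and the cause of this difference was not tested. TFF1, a peptide of gastric surface mucous cells, rose by 1.15 ± 0.11 log2 units (adjusted p = 0.000314) and MUC13, a transmembrane mucin, by 0.45 ± 0.10 (adjusted p = 0.0258). FABP2 changed by 0.43 ± 0.11 at a dim signal and did not pass (adjusted p = 0.0511). CLDN4 and ELF3 were the 2 of 12 epithelial markers that rose, by 0.61 ± 0.10 and 0.48 ± 0.12 log2 units (adjusted p = 0.00763 and 0.0462). ELF3 did not pass with any array left out (adjusted p = 0.0548 to 0.184), and MUC13 passed only when that array was CTNNB1 siRNA replicate 2 (otherwise 0.0587 to 0.128).

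Structural relatives of the members showed no called change. These 24 genes outside the set included the hormone receptors nearest to the LGR family with other ASCL, olfactomedin, SMOC, LRIG, SOXE and PCGF genes. None passed in limma, beside 4.72% of all genes, and in a list this short that is not read as a result. Beside 3746 of all 18417 genes, 2 of the relatives had an unadjusted p under 0.05. These were ASCL3, at 0.41 ± 0.13 log2 units (SE; adjusted p = 0.102), and RXFP1, at -0.31 ± 0.14 (adjusted p = 0.243), both at dim signals. BMI1 is a subunit of polycomb repressive complex 1, which silences genes through chromatin. Another 18 measured genes belong to that complex or, like CDKN2A, are its targets. None of them passed in limma, beside 4.72% of all genes, and nothing is read from this either. Only 1 had an unadjusted p under 0.05, RYBP at 0.30 ± 0.10 (adjusted p = 0.133).

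The genes whose values lay nearest to those of LGR5 were found by the root mean square difference of centred log2 values over the 6 arrays. They were LRP2 (0.215), SLC12A2 (0.220), H3C2 (0.234), CLGN (0.250) and ABCC4 (0.262), and being chosen for this pattern they are given with no test. LRP2 encodes the endocytic receptor megalin, H3C2 a replication-dependent histone, CLGN a chaperone of the endoplasmic reticulum and ABCC4 an efflux transporter. LRP2 measured 7.85, 7.87 and 8.11 with CTNNB1 siRNA and 9.26, 9.00 and 9.12 with control siRNA. H3C2 measured 8.55, 8.48 and 8.64 with CTNNB1 siRNA and 9.59, 9.47 and 9.61 with control siRNA. The measure rests mostly on the step between the groups, and within the groups some of the genes differed. LGR5 was highest in control replicate 3, whereas LRP2, SLC12A2 and ABCC4 were highest in control replicate 1. H3C2 had the same order of arrays as LGR5 in both groups. Among the members LRIG1 was nearest to LGR5, at 0.433 and rank 256 of all genes, followed by OLFM4 at 0.567 and ASCL2 at 0.575.

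**Figure D4:**
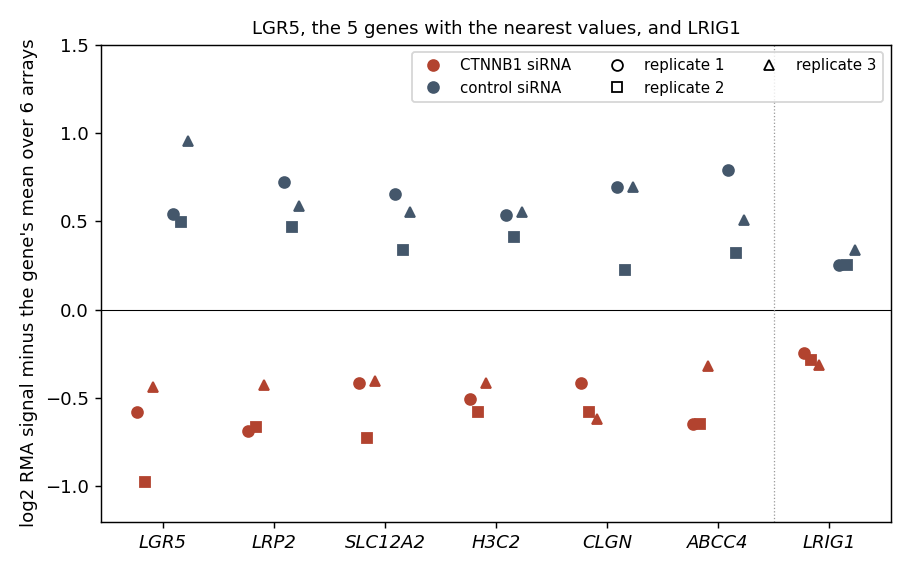
Log2 RMA signal of each array minus the gene's mean over the 6 arrays, for LGR5, the 5 genes nearest to it and, right of the dotted line, LRIG1. CTNNB1 siRNA arrays are red and control siRNA arrays grey, and symbols are replicates. All 7 genes step down with CTNNB1 siRNA, LRIG1 by the least.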

How the data were processed

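RNA of the 6 YCC3 samples was measured on Affymetrix Human Gene 1.0 ST arrays. Per the submitters' processing notes, the authors computed log2 RMA signals, and Affymetrix Expression Console 1.1 is named there too. Because RMA gives all arrays a common distribution, a shift of most genes at once is hidden. Values between 0.789 and 14.5 showed the scale to be log2. Background calls are not used here, and the number of arrays limits the precision. The genome build is not given in the sources used here.

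Of 33297 rows, 19460 had exactly 1 symbol, 1754 had several and 12083 were not named in the annotation. The brightest row per gene left 18417 genes, with no filter on dim genes. Two-sided tests came from lmFit and eBayes of limma 3.58.1 (R 4.3.3), with Benjamini-Hochberg adjustment over all genes. No 2 arrays of a group were identical, the SD of their difference being 0.203 to 0.262. The fit was tested on simulated data. The members and lists were chosen with earlier results of these data known. Named genes are the members, CTNNB1, the called genes of each list with up to 3 of the next smallest p, the 2 largest interferon changes, cell type markers and the 5 genes nearest to LGR5. Any other gene is said to have been named after its values were seen. The alternatives were other scalings, filters, variance models, row choices, a replicate block and leaving out each array.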

Additional observations from a re-analysis of the deposited data

How the results depend on the processing

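LRIG1 passed the threshold in all 17 alternatives, with log2 changes between -0.58 and -0.50 and adjusted p between 0.000588 and 0.0463. LGR5 changed by between -1.44 and -1.17. The number of members past the threshold includes LGR5, which was chosen for its fall. That number was 2 in each alternative except a test without moderation, where it was 1, LRIG1, and none was higher in any. It was 2 with any 1 array left out. LGR6, PROM1 and SOX9, which were not called, changed sign in 6 of 15, 3 of 15 and 7 of 17 alternatives. Filtering removed LGR6, SMOC2 and PROM1 at the dimmest 25% and ASCL2 also at 50%.

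Of the listed genes other than members and interferon genes, 6 fell. That count was 11 without the dimmest 50% of genes, 10 with a trended and robust variance, 1 without moderation, 3 with all rows of the table in the fit, and between 3 (without control replicate 1) and 6 with 1 array left out. The count of 8 that rose became 0 without moderation, where all genes past the threshold numbered 111, and 2 with all rows, where 195 genes passed. With 1 array left out it was between 4 (without CTNNB1 siRNA replicate 1 or control replicate 1) and 7. All genes past the threshold numbered 870, and 1483 without the dimmest 25%, 1861 without the dimmest 50%, 1622 with a trended and robust variance, and between 283 and 877 with 1 array left out. Leaving out CTNNB1 siRNA replicate 1 gave the lowest number, CTNNB1 siRNA replicate 2 gave 421, control replicate 1 gave 288 and control replicate 3 gave 372. The cause of these shifts was not tested.

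The labels do not say that replicate numbers pair the samples. Deviations of same-numbered arrays correlated at -0.0188, 0.329 and 0.223 across genes (replicates 1, 2 and 3). Those of differently numbered arrays correlated at -0.293 to 0.0777, below the values of replicates 2 and 3. Deviations were taken from the mean of each group, so those of a gene cancel out within a group. A high value for same-numbered arrays therefore lowers the others, and this contrast is partly fixed by arithmetic. Whether same-numbered arrays shared a batch was not tested. With the replicate block 1177 genes passed, LRIG1 changed by -0.56 (adjusted p = 0.0146), and the members past the threshold, LGR5 included, stayed at 2.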
